A study of Homo sapiens with 6 samples.

Results

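MiR-21, an oncomiR that is abundant in hepatocellular carcinoma, was followed through both arms of its precursor in the miRNA sequencing of Huh7 cells. The rows named hsa-miR-21-5p and hsa-miR-21-3p were taken by name from the table of mature miRNAs, which gave 2 members of 2588 miRNAs. Earlier results of these data were known when they were chosen. Huh7 is an established human hepatoma cell line. Both groups were transfected with Lipofectamine 2000 and collected 48 h later. The overexpression group (3 samples) received the plasmid carrying hsa_circ_0098181, a circular RNA, and the control group (3 samples) received the control plasmid. Transfection was transient and in a single cell line, and the labels do not say whether the replicates were separate cultures, so that the p-values measure only the spread between these samples, which may be technical.

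A miRNA precursor is a hairpin that is cut by Drosha and Dicer into a duplex of its 5′ arm (5p) and its 3′ arm (3p). An Argonaute protein usually keeps the guide strand, and the passenger strand is mostly degraded. The guide finds its targets through the seed near its 5′ end. The miR-21-5p strand is the usual guide, it is induced by STAT3 and AP-1, and its known targets include the tumor suppressor PDCD4. In liver it is known for its rise in tumors, fibrosis and regeneration.

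In GENCODE release 29 (GRCh38), MIR21 (ENSG00000284190.1) lies on the plus strand of chromosome 17, from 59841266 to 59841337. It is inside the annotated bounds of VMP1 (59707192 to 59842255), a gene of autophagosome formation, and starts 174 bases after the end of the protein-coding transcript VMP1-201 (59841092). It falls within the bounds of the retained-intron transcript VMP1-216 (59837931 to 59842255). In RefSeq (GRCh38.p14), miR-21-5p occupies bases 8 to 29 of the 72-base hairpin, at chr17:59841273-59841294 on the plus strand. The mature sequence of miR-21-3p was not printed here. Of the mature human sequences searched, only miR-590-5p (chr7:74191213-74191234, plus strand) had the same seed as miR-21-5p. Both are shown with the shared seed (bases 2 to 8) in capitals, because miRNAs with the same seed can pair with the same target letters:
hsa-miR-21-5p: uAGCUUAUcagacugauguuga
hsa-miR-590-5p: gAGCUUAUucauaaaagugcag
Over their whole length these sequences had an edit distance of 10. The closest sequence to miR-21-5p among 2369 other mature miRNAs was miR-217-5p, with an edit distance of 7. MiR-21-5p begins with U, as did 218 of the 493 tested miRNAs with a sequence (44.2%), and miR-590-5p begins with G.

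The libraries held 7144798 to 10786295 counts each. Control replicate 3 stood apart, since its median absolute log2 difference from control replicates 1 and 2 over 152 abundant miRNAs was 0.21, against 0.049 between those 2. Its difference from overexpression replicates 1 to 3 was smaller, at 0.12, 0.19 and 0.16. The overexpression replicates differed from each other by 0.078 to 0.105. Where fits without control replicate 3 are given below, the controls are only the close pair of control replicates 1 and 2. The p-values of these fits may therefore understate the spread. The liver miRNAs miR-122-5p, miR-192-5p, miR-194-5p and miR-148a-3p together reached 403377 to 435127 TPM in the control samples and 422224 to 434247 TPM in the overexpression samples. The 5 blood cell markers summed to 13.3 to 14.3 TPM in the overexpression group, against 17.0 to 19.1 TPM in the control group, the 4 stroma markers to 115 to 123 and 123 to 132 TPM, and the endothelial markers (miR-126, both arms) to 4178 to 4341 and 3811 to 4292 TPM. Muscle markers were at 1.45 to 2.24 and 1.68 to 2.23 TPM, and neuron markers at 115 to 131 and 98.6 to 149 TPM. No marker was at 0 in all samples, but miR-214-3p, miR-133a-3p and miR-206 were never above 0.251 TPM. The blood sum was mostly miR-142-3p. MiR-142-5p went the other way (0.362 to 0.501 TPM in the overexpression group, 0.140 to 0.278 TPM in the control group), and the other blood markers overlapped. The neuron sum was mostly miR-9-5p. The part of these markers in the miR-21 values was not tested.

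MiR-21-5p was number 4 among all miRNAs by mean TPM, and its share of the library differed between the groups by less than the spread of the controls. The deposited TPM is the count divided by the total of that sample and multiplied by 1000000, and since a small RNA read spans the whole mature miRNA, no length term is needed to compare miRNAs. In the overexpression group miR-21-5p was counted 431006, 465530 and 451543 times in replicates 1 to 3, or 54021, 54969 and 54473 TPM. In the control group it was counted 551509, 464034 and 414687 times, or 51131, 53477 and 58040 TPM. The overexpression samples lay close together, and the controls lay below and above them, so that the groups overlapped. The mean was 54488 ± 474 TPM with hsa_circ_0098181 and 54216 ± 3514 TPM with the control plasmid (SD, n = 3 each), and differed by 272 TPM (p = 0.9 in an exact permutation test, two-sided, which cannot go below 0.1 with 3 samples in each group). As a share of all counts this was 5.45% ± 0.0474 and 5.42% ± 0.351 (SD, n = 3 each). The coefficient of variation was 0.870% in the overexpression group and 6.48% among the controls.

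MiR-21-3p was present at a much lower level, and its TPM was lower in every overexpression sample than in every control. Its counts were 3281, 3673 and 3165 in overexpression replicates 1 to 3, which is 411, 434 and 382 TPM. In control replicates 1 to 3 it was counted 4739, 4349 and 3244 times, which is 439, 501 and 454 TPM. The highest overexpression sample (434 TPM) and the lowest control (439 TPM) were nearly level. The mean was 409 ± 26.0 TPM in the overexpression group, against 465 ± 32.3 TPM in the control group (SD, n = 3 each), and the difference was -55.9 TPM (p = 0.1 in the exact permutation test, the smallest p it can give). Such a separation was common on this scale, since the groups did not overlap with the overexpression group lower for 16.3% of the 552 miRNAs tested. After scaling with TMM factors the groups of miR-21-3p overlapped, as given below.

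TMM factors, which correct for the composition of a library, exchanged these pictures. In TMM-scaled CPM, miR-21-5p was 54220, 59714 and 56328 with hsa_circ_0098181 (replicates 1 to 3) and 50895, 51833 and 53357 with the control plasmid. Every overexpression sample was now above every control, which was also the case for 8.88% of the 552 tested miRNAs. The means were 56754 ± 2772 and 52029 ± 1243 CPM (SD, n = 3 each). MiR-21-3p was 413, 471 and 395 CPM with hsa_circ_0098181 and 437, 486 and 417 CPM with the control plasmid, with means of 426 ± 39.9 and 447 ± 35.2 CPM (SD, n = 3 each). Here the samples of both groups were mixed.

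In the test across all miRNAs, neither arm passed the threshold. The log2 fold change of miR-21-5p was 0.13 (standard error 0.063, 95% confidence interval from -0.0094 to 0.26), with an unadjusted p of 0.0658 and an adjusted p of 0.562 by the edgeR quasi-likelihood method. As a fold this was 1.09, with an interval from 0.993 to 1.20. The log2 fold change of miR-21-3p was -0.068 (standard error 0.10, 95% confidence interval from -0.29 to 0.16), with an adjusted p of 0.808 by the same edgeR method, which is a fold of 0.954 with an interval from 0.816 to 1.12. A p above the threshold does not show that the groups were alike. Of the 552 miRNAs, edgeR called 0 at the adjusted threshold of 0.05 (0%), 50 had an unadjusted p under 0.05 (9.06%), and DESeq2 also called 0. By their p, miR-21-5p was number 63 and miR-21-3p number 356. By the size of the log2 fold change they were numbers 324 and 436, so that more than 300 miRNAs had a larger estimated difference than either arm.

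The scaling set the size of these estimates. Their signs did not change, but some estimates were far smaller than their standard errors. With the library size alone, all tested miRNAs together moved to a median log2 fold change of -0.11, against 0.0038 with TMM factors. MiR-21-5p then had a log2 fold change of 0.0072 (adjusted p = 0.971 from edgeR), and miR-21-3p had -0.18 (adjusted p = 0.464 from edgeR). Relative to the median of all tested miRNAs, miR-21-5p was 0.12 higher under either scaling, and miR-21-3p was 0.072 lower with TMM factors and 0.073 lower with the library size alone. Over all 16 alternative fits the log2 fold change of miR-21-5p was between 0.0072 and 0.15 and that of miR-21-3p between -0.18 and -0.0066, and no fit called either arm, with an adjusted p from 0.162 to 0.973 for miR-21-5p and from 0.408 to 0.999 for miR-21-3p. Both of the smallest values came from edgeR without control replicate 3.

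Among the most abundant miRNAs, miR-21-5p exchanged places with a single neighbour. By mean TPM it stood below miR-122-5p, the liver miRNA that takes the largest share, below miR-16-5p and just below miR-148a-3p. The liver-enriched miR-148a-3p was at 52136 ± 3525 TPM in the overexpression group, against 60974 ± 3748 TPM in the control group (SD, n = 3 each). MiR-21-5p was at rank 3 and above miR-148a-3p in overexpression replicates 2 and 3 and in control replicate 3, and at rank 4 in the other 3 samples. Among the controls the mean of miR-148a-3p was above that of miR-21-5p (54216 ± 3514 TPM) by more than the SD of either. In the overexpression group the mean of miR-21-5p (54488 ± 474 TPM) was the higher of the 2. The difference there was above the SD of miR-21-5p and below the SD of miR-148a-3p. The log2 fold change of miR-148a-3p was -0.11 with all 6 samples (adjusted p = 0.617 by edgeR) and -0.21 without control replicate 3 (adjusted p = 0.00658 by edgeR). The next, miR-192-5p, stayed lower in every sample, with 1.56 to 2.08 reads of miR-21-5p for each of its own, and miR-16-5p stayed higher in every sample.

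A ratio of counts within a library does not depend on the scaling. The ratio of miR-21-5p to miR-16-5p, a miRNA of the miR-15/16 family that restrains the cell cycle, was 0.341, 0.373 and 0.372 with hsa_circ_0098181 (replicates 1 to 3) and 0.365, 0.367 and 0.365 with the control plasmid. The controls were almost identical in this ratio, control replicate 3 included, with a log2 mean of -1.45 ± 0.0041 (SD, n = 3). The overexpression group was at -1.47 ± 0.074 (SD, n = 3) and lay on both sides of the controls. Against miR-122-5p, the ratio was 0.168, 0.162 and 0.164 in the overexpression replicates and 0.157, 0.173 and 0.190 in the controls. Here the overexpression samples were close together and the controls spread around them. Against miR-148a-3p, it was 0.961, 1.09 and 1.09 with hsa_circ_0098181 and 0.816, 0.841 and 1.02 with the control plasmid. Control replicate 3 fell among the overexpression samples, and the log2 means were 0.066 ± 0.11 and -0.17 ± 0.18 (SD, n = 3 each). Against miR-192-5p the log2 means were 0.77 ± 0.051 and 0.81 ± 0.22 (SD, n = 3 each), and the groups overlapped.

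**Figure D1:**
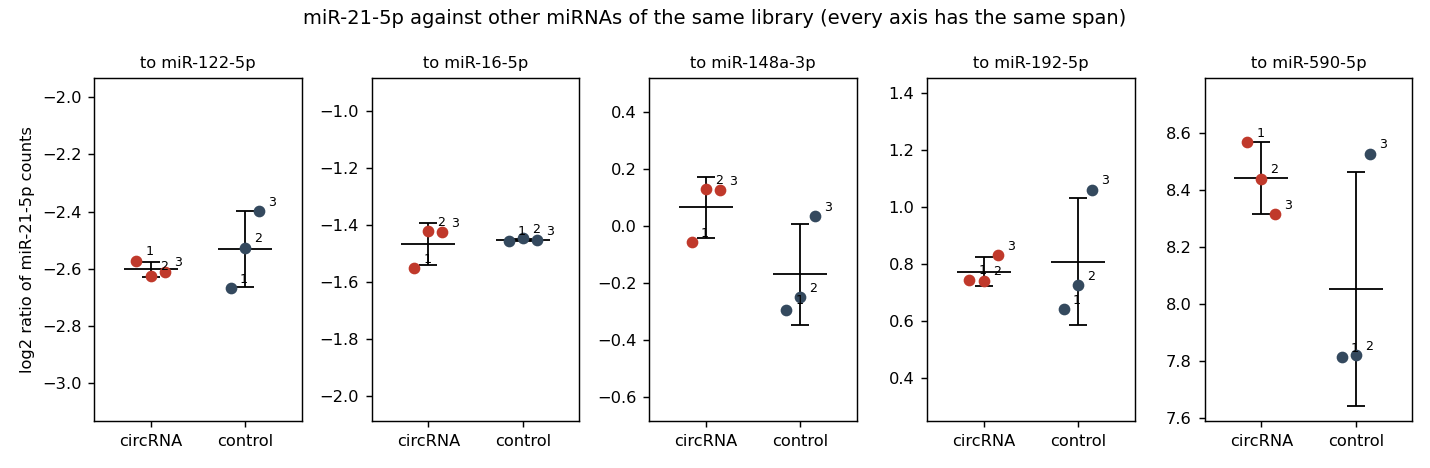
Log2 ratio of miR-21-5p counts to those of miR-122-5p, miR-16-5p, miR-148a-3p, miR-192-5p and miR-590-5p in each sample, where every axis spans the same width; points are samples with their replicate numbers, and lines are the mean and SD (n = 3). The groups overlap in all panels, the controls are tightest against miR-16-5p (log2 SD 0.0041), and control replicate 3 is apart from the other controls against miR-590-5p (8.53 against 7.81 and 7.82).

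MiR-21-3p ranked 90 by mean TPM and between 87 and 92 in single samples. The 2 miRNAs next above it were miR-551b-3p, at 402 ± 29.02 TPM in the overexpression group, against 503 ± 49.3 TPM in the control group, and let-7c-5p, at 403 ± 42.8 and 491 ± 56.0 TPM (SD, n = 3 each). The 2 next below were miR-423-3p, at 410 ± 29.3 and 431 ± 84.5 TPM, and miR-424-5p, at 338 ± 18.0 and 454 ± 70.5 TPM (SD, n = 3 each). The mean of miR-21-3p was within 1 SD of all 4 neighbours in both groups, except for miR-424-5p in the overexpression group, and these miRNAs did not otherwise differ from it beyond their spread.

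The arms of miR-21 were far from equal, as the guide was read more than 100 times for each passenger read. The number of 5p reads per 3p read was 131, 127 and 143 with hsa_circ_0098181 (replicates 1 to 3) and 116, 107 and 128 with the control plasmid. The overexpression values were the higher ones, but control replicate 3 lay just above overexpression replicate 2. As a share of both arms, miR-21-3p took 0.745% ± 0.0444 in the overexpression group, against 0.852% ± 0.0762 in the control group (SD, n = 3 each). The log2 ratio of miR-21-3p to miR-21-5p, with 0.5 added to each count, was -7.06 ± 0.088 and -6.87 ± 0.13 (SD, n = 3 each), and the groups differed by -0.19 (p = 0.2 in the two-sided exact permutation test). Leaving out a sample gave differences from -0.26, without control replicate 3, to -0.13, without control replicate 2.

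This difference was of ordinary size for the table. Arms were paired only where their names differed in nothing but 5p or 3p. This left out arms with a locus number in the name, such as miR-16-1-3p and miR-16-2-3p beside miR-16-5p. Of the 135 precursors paired in this way with both arms tested, 67 had a larger absolute difference of the arm ratio than miR-21. The median absolute difference was 0.19. The groups did not overlap in the arm ratio for 19.3% of the 135, and miR-21 was not among them. The 5p arm was the major one in 80 precursors and the 3p arm in 55. The median precursor had 12.9 reads of its major arm for each read of its minor arm, and miR-21, with 125, ranked 28 in this imbalance. Its nearest precursors in the 3p-to-5p ratio were miR-191 and miR-93 below and miR-194 and let-7c above, with mean log2 ratios of -7.05, -6.98, -6.90 and -6.67 against -6.96 for miR-21. Among the 5 most abundant of these 135 precursors, the imbalance was 1708 for miR-122 (5p major) and 1986 for miR-148a (3p major). It was 125 for miR-21, 89.9 for miR-192 (5p major) and 208 for miR-25 (3p major). Of these 5, only miR-192 kept more of its minor arm than miR-21. MiR-16 was left out by the pairing, although miR-16-5p was number 2 by mean TPM.

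The arms were also nearly uncorrelated over the 6 samples, which are too few to settle whether they vary together. The Pearson correlation of their log2 TMM CPM over the 6 samples was -0.028, given as a description of samples that share library and scaling. Of 151 other miRNAs with at least 100 TPM, the profiles most like miR-21-5p were those of miR-25-3p (r = 0.97), miR-125b-5p (0.95), miR-215-5p (0.94), miR-191-5p (0.93) and miR-128-3p (0.93). These 5 had log2 fold changes from 0.21 to 0.25. The profiles most like miR-21-3p were those of miR-561-3p (r = 0.94), miR-148b-3p (0.83), miR-582-3p (0.80), miR-200a-3p (0.75) and miR-561-5p (0.75). MiR-21-5p was among the steadier miRNAs, with a within-group coefficient of variation of 3.84% in TMM CPM, number 20 from the lowest of 152, and miR-21-3p was near the middle (8.65%, number 82, against a median of 8.16%).

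The miRNA with the same seed, miR-590-5p, was scarce beside miR-21-5p. It is made from an intron of EIF4H and has its own 3′ arm as the major product. Its level was 143, 158 and 171 TPM with hsa_circ_0098181 (replicates 1 to 3) and 227, 237 and 157 TPM with the control plasmid. Control replicate 3 fell among the overexpression samples, and the other controls were above them. There were 379, 347 and 318 reads of miR-21-5p for each read of miR-590-5p with hsa_circ_0098181, against 225, 226 and 369 among the controls. The estimate for miR-590-5p, on the log2 scale, was -0.29 ± 0.16 (standard error; adjusted p = 0.598 by edgeR). Without control replicate 3 it was -0.49 ± 0.093 (standard error; adjusted p = 0.000108 by edgeR), in a fit that called 9.91% of 565 miRNAs. That fit rested on the close pair of control replicates 1 and 2, so its p-values may understate the spread. Over the other alternatives the adjusted p of miR-590-5p was between 0.270 and 0.865. MiR-21-5p in the fit without control replicate 3 was at 0.12 (standard error 0.056), with an adjusted p of 0.162 by edgeR.

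Other oncomiRs were read beside miR-21 from a list of 23 that included the miR-17-92 and miR-106b-25 products, miR-221 and miR-222, the miR-183 cluster, miR-181 and miR-210. Of these, 19 passed the filter on low counts. The 4 others were miR-155-5p, an inflammatory oncomiR with 2 to 6 counts a library, miR-224-5p with at most 1 count, and miR-372-3p and miR-373-3p, for which the count was 0 in every library, which allows up to 3 counts in each. None of the 19 was more abundant than miR-21-5p, and 14 were more abundant than miR-21-3p. MiR-21-5p alone held 32.0% of the summed TPM of the list and itself. The next were miR-25-3p, at 31049 ± 393 TPM in the overexpression group, against 28758 ± 2046 TPM in the control group, and miR-93-5p, at 28713 ± 605 and 28425 ± 1803 TPM (SD, n = 3 each), both from the cluster in the MCM7 gene.

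With all 6 samples, 11 of the 19 were higher and 8 were lower in the overexpression group, with a median log2 fold change of 0.053 against 0.0038 for all tested miRNAs, of which 49.1% were lower. By edgeR none was called (0%), while 7 were under 0.05 before adjustment, where 9.06% of all tested miRNAs were. The number of lower members became 12 with the library size alone. The estimates ran from -0.42 for miR-18a-5p to 0.24 for miR-92a-3p, both products of the miR-17-92 cluster, so that miR-21-5p (0.13) lay inside their range. Without control replicate 3, 11 of the 19 were called in edgeR's test (8 lower, 3 higher), where 9.91% of all tested miRNAs were. The lower ones were miR-17-5p, miR-18a-5p, miR-19a-3p, miR-19b-3p, miR-20a-5p, miR-96-5p, miR-106b-5p and miR-210-3p, with log2 fold changes from -0.62 (miR-19a-3p, standard error 0.071) to -0.22 (miR-20a-5p, standard error 0.059). The higher ones were miR-25-3p, miR-92a-3p and miR-182-5p, with 0.24, 0.32 and 0.22. The estimate of miR-21-5p was 0.12 in that fit and 0.13 with all 6 samples, and neither arm was called. With only the close pair of control replicates 1 and 2 left, the p-values of that fit may understate the spread. The shares over all tested miRNAs are also not matched for abundance, since 14 of the 19 were above miR-21-3p, number 90 by mean TPM. A scarce member, miR-10b-5p, had a standard error of 0.26, against 0.067 for miR-25-3p (edgeR, all 6 samples).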

How the data were processed

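Total RNA of 6 Huh7 samples was sequenced for miRNAs, and samples were grouped by their labels. The authors deposited counts, the reads assigned to each mature miRNA, and TPM values. The deposited TPM equalled the count divided by the sample total, times 1000000, to within 0.00303. The submitters' processing notes name TopHat2 2.0.9, Bowtie and hg38, and trimming, the miRNA annotation and the treatment of reads matching several miRNAs are not given in the sources used here. Isoforms of an arm are contained in its count.

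Counts were compared with edgeR 4.0.16 (R 4.3.3): filterByExpr (minimum count 10, minimum total 15), TMM factors and the two-sided quasi-likelihood test on group, with Benjamini-Hochberg adjustment over 552 miRNAs and a threshold of 0.05. These miRNAs held 99.98% of counts. The paper's methods name Student's test for its data in general and no test for the sequencing in particular. Single values were compared by two-sided exact permutation tests (SciPy 1.17.1). Alternatives used DESeq2 1.42.0, limma 3.58.1 on log2 of TPM plus 1 or 0.1, other scalings and filters, the replicate block and leaving out each sample. The fit was tested on simulated data. Depth was 7144798 to 10786295 counts, and the limit given for a count of 0 covers counting error alone.

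The members, lists and tests were chosen with earlier results of these data known. Named miRNAs were both arms, those sharing the seed of miR-21-5p, the oncomiR list and the 5 most abundant. The 2 neighbours on each side in level and in arm ratio were added. So were the 5 most similar profiles to each arm (at least 100 TPM). The 5 most abundant precursors were taken from those whose arms could be paired by name.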

Additional observations from a re-analysis of the deposited data

How the results depend on the processing

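The signs of both arms' log2 fold changes held in all 16 alternatives, with no call in any of them, though some estimates were far smaller than their standard errors. Leaving out a sample gave 0.083 to 0.15 for miR-21-5p and -0.15 to -0.0066 for miR-21-3p, and the arm ratio difference, -0.19, kept its sign in its 9 alternatives (-0.26 to -0.13 with a sample left out). At an adjusted p under 0.05, edgeR called 0 miRNAs (50 unadjusted), 3 with the library size alone, 6 without a filter, 3 in limma on log2 of TPM plus 1, and 0 to 56 with a sample left out, where the 56 came without control replicate 3 and each other sample left out gave 0 (27 to 50 unadjusted). The causes were not tested. The number of oncomiRs lower in the overexpression group, 8 of 19, was 8 to 10 with a sample left out, 11 with the library size without miR-122-5p and in both limma fits, and 12 with the library size alone. Samples of the same number deviated from their group means over 152 abundant miRNAs with correlations at -0.025, 0.15 and 0.24. For samples of different numbers the correlations lay between -0.27 and 0.20, which overlaps with these values, though 0.24 was the highest of all. So few samples cannot decide whether equal replicate numbers mark pairs. With the replicate block the log2 fold changes were 0.12 for miR-21-5p and -0.069 for miR-21-3p, 0 miRNAs were called (42 unadjusted), 8 oncomiRs were lower, and the paired difference of the arm ratio was -0.19. With 3 samples a group, an exact permutation test cannot go below 0.1.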
